A study of Piaractus mesopotamicus with 9 samples.

Results

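Pacu myotubes given amino acids were compared directly to pacu myotubes given IGF1, in 6 of the 9 libraries of the series: 3 of the AA group and 3 of the IGF1 group. Contigs with a mean raw count of at least 10 over the 9 libraries were tested, and each gene name was represented by its contig with the highest mean normalized count, which left 13162 genes. Of these, 626 differed between AA and IGF1, or 4.76%. A gene was taken to differ when its adjusted p did not exceed 0.05 and its change was at least 2-fold in either direction. Each differing gene was then sorted by whether AA, IGF1, both or neither had moved it from the CTR group, in which cells received neither.

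The cells were myoblasts from the fast-twitch muscle of juvenile pacu (Piaractus mesopotamicus), a South American characiform fish, pooled from several fish per culture and grown to day 8, when they had fused into myotubes. All 3 groups spent 12 h in a restriction medium without amino acids. The CTR group stayed in it, for 36 h in all, while the AA group was moved to an amino acid-containing culture medium (DMEM) and the IGF1 group received recombinant sea bream IGF1 in the restriction medium, each for 24 h by the protocol. The treatment field of the labels gives 12 h for AA and IGF1, and 24 h is used here. AA and IGF1 libraries therefore differed in amino acids, in IGF1 and in the basal medium, which cannot be told apart. The methods give 3 independent cultures but not whether libraries of the same number share one, so p-values measure the spread between these libraries.

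Amino acids and IGF1 are the classic growth inputs of muscle. IGF1 binds its receptor and acts through PI3K and AKT, which restrain the FoxO factors that drive atrophy genes, and both AKT and intracellular amino acids feed into mTORC1, which promotes protein synthesis. When amino acids are scarce, uncharged tRNAs activate the kinase GCN2, and the factor ATF4 raises the transcription of amino acid transporters, synthetic enzymes and aminoacyl-tRNA synthetases. A comparison of AA to IGF1 thus sets a supply of building blocks against a hormone given while that supply is absent.

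Library totals ranged from 1366043 to 53525876 counts, and both extremes lay in this comparison, in AA replicate 3 and IGF1 replicate 3. In AA replicate 3, 12.3% of the genes tested were at 0. A count of 3 in that library is worth 21.1 normalized counts, so a 0 there allows up to that level (counting error only). The median SD of log2 normalized counts was 0.445 within AA and 0.289 within IGF1. The cultures carried muscle transcripts in every library, with desmin (desma), myogenin (myog) and titin (ttn.1) all detected. Of 10 symbols of red blood cell markers none was among the genes tested, and of 15 leukocyte markers only 2 were, with summed normalized counts of 0 to 28.5. Endothelial, adipocyte and neural markers had 6, 7 and 3 genes tested, of which the cadherin cdh5 was higher in AA (1.52) and cebpa higher in IGF1 (-1.36), and these calls ended in 2 and 6 of 9 fits that omitted 1 library. In cdh5 the AA and IGF1 libraries overlapped, and 4 of the 6 endothelial genes had a negative log2 fold-change (median -0.20). The summed endothelial level was 260 to 451 in AA and 361 to 398 in IGF1. Levels below are counts divided by the authors' size factors, not scaled for transcript length. Values after ± are the SE of a log2 fold-change from 3 libraries a group.

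Of the 626 differing genes, 360 were higher in AA (2.74% of the genes tested) and 266 higher in IGF1 (2.02%). The 3 AA libraries lay wholly above or wholly below the 3 IGF1 libraries in 597 of the 626 genes, or 95.4%, against 27.6% of all genes tested. The median size of the difference was 1.43 on the log2 scale, and 121 genes passed 4-fold, 80 of them higher in AA and 41 higher in IGF1. With no normalization beyond the library size the split became 584 to 160 genes, or 78.5% higher in AA in place of 57.5%, as the median log2 fold-change of all genes moved from -0.01 to 0.16. Without AA replicate 2 the split was 280 to 297, or 48.5% higher in AA. The 626 names lay in 597 loci of the assembly, since 57 names were contigs of a locus that also gave another differing name, and no locus held names of both directions.

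Sorted by the comparisons to CTR, 269 of the differing genes had been moved by AA alone, 101 by IGF1 alone, 19 by both and 237 by neither. AA alone raised 149 genes that were thus higher in AA and lowered 120 that were thus higher in IGF1. IGF1 alone lowered 66 genes and raised 35. Of the 19 moved by both, 15 went the same way to different extents and 4 went opposite ways. Over all genes tested, AA moved 916 from CTR (6.96%) and IGF1 moved 386 (2.93%). The CTR libraries are shared by those comparisons, so the sorting places a difference and does not test it.

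**Figure D1:**
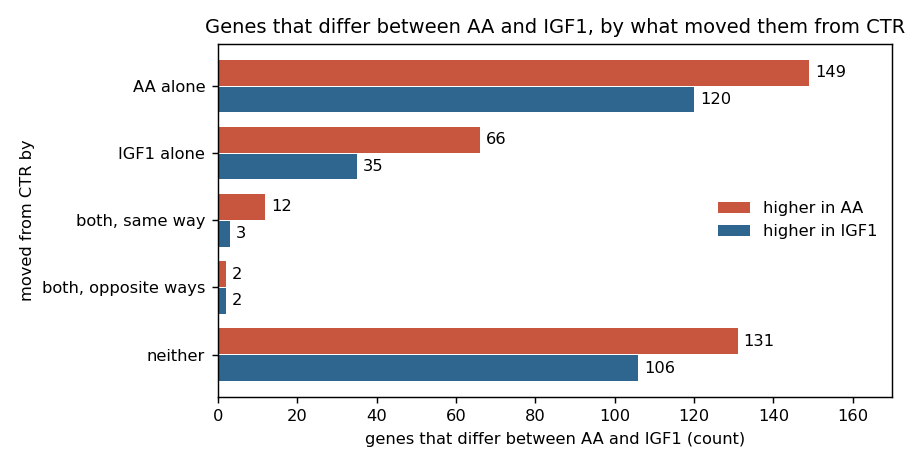
Number of genes that differ between AA and IGF1 (x axis, count), by the treatment that moved them from CTR (y axis), with red bars for genes higher in AA and blue bars for genes higher in IGF1. The longest bars are the 149 genes raised and 120 lowered by AA alone and the 131 and 106 genes that neither treatment moved past the thresholds.

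**Figure D2:**
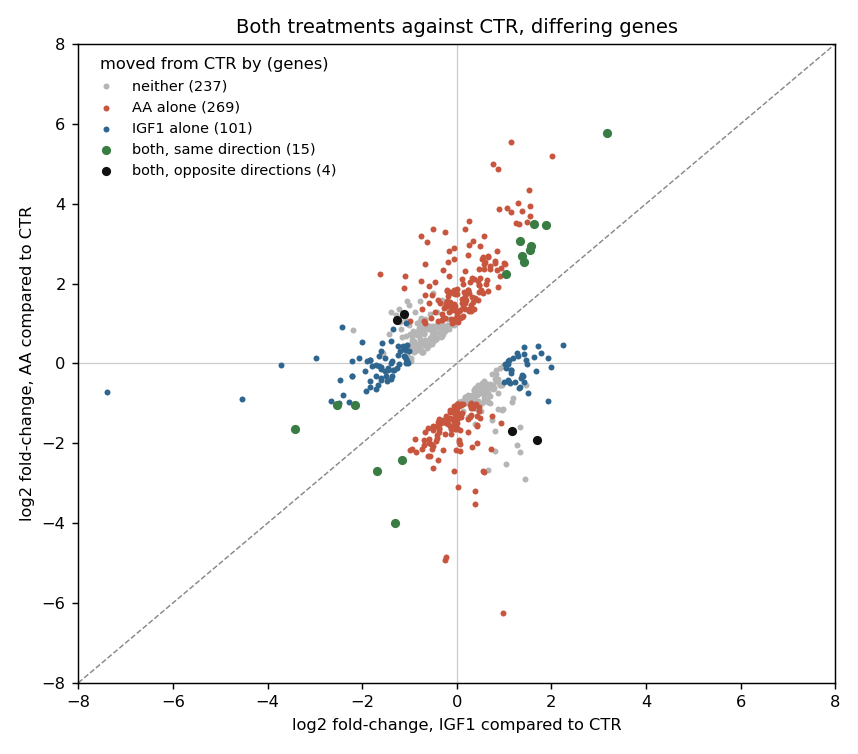
Log2 fold-change of each of the 626 differing genes in IGF1 compared to CTR (x axis) and in AA compared to CTR (y axis), coloured by class, with the dashed line where both are equal. The 269 genes moved by AA alone spread along the y axis, the 101 moved by IGF1 alone along the x axis, and the points farthest out include genes with few counts, whose fitted values depend on the prior count.

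Of the 10 genes with an informative symbol that lay furthest above IGF1 in AA, 7 encode sarcomere or sarcomere-associated proteins (myom1a, myom2a, tnnc2, mylz3, mylpfa, klhl41b and ldb3b), and the others were tmsb, the transporter abcc6a and the protocadherin pcdh1b. The largest difference among them was in tmsb, a beta-thymosin that binds monomeric actin, at 104, 152 and 176 in AA, 2.83, 5.7 and 8.99 in IGF1 and 1.61, 1.46 and 4.597 in CTR (log2 fold-change 4.38 ± 0.48, adjusted p = 6.90e-06). All AA libraries lay far above the rest, and IGF1 did not differ from CTR at the thresholds. Myomesin (myom1a), which ties thick filaments together at the M-band, was at 55.03, 91.3 and 84.4 in AA, 0, 5.7 and 5.79 in IGF1 and 1.61, 4.38 and 1.41 in CTR (log2 fold-change 4.24 ± 0.67, adjusted p = 0.000353). Fast troponin C (tnnc2), the calcium sensor of the thin filament, was at 25.4, 50.04 and 42.2 in AA, 2.13, 0 and 2.997 in IGF1 and 2.41, 0 and 1.41 in CTR (log2 fold-change 3.99 ± 0.73, adjusted p = 0.00153). These 3 transcripts stayed below 10 normalized counts in every IGF1 and CTR library. The myosin light chain mylz3 was at 19.05, 124 and 134 in AA, 5.67, 0 and 9.19 in IGF1 and 7.23, 14.6 and 10.3 in CTR, and AA replicate 1 stood apart from the other AA libraries (log2 fold-change 3.68 ± 0.64, adjusted p = 0.000939). The phosphorylatable light chain mylpfa was at 106, 153 and 359 in AA, 20.6, 22.8 and 18.98 in IGF1 and 11.2, 11.7 and 27.9 in CTR (log2 fold-change 3.19 ± 0.45, adjusted p = 0.000102).

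Of 35 tested genes of sarcomere and contraction, 13 were higher in AA and 0 higher in IGF1 by edgeR's quasi-likelihood test. DESeq2 called 13 and 1. The edgeR share was 37.1%, beside 4.76% of all genes tested. The list's median log2 fold-change was 0.91 against -0.01 over all genes. Without the fold minimum, 3 members were higher in IGF1, the filamin flncb at -0.84, the actin-binding xirp2a at -0.75 and the tropomyosin tpm2 at -0.56. Of the 13, 11 had been raised by AA alone, and the muscle creatine kinases ckma and ckmb, which buffer ATP at the myofibril, differed by 1.91 ± 0.37 and 2.0 ± 0.32. The giant spring protein titin (ttn.1) rose in both treatments, to 182, 254 and 359 in AA and 74.4, 79.8 and 74.5 in IGF1 from 32.1, 30.7 and 28.3 in CTR (log2 fold-change 1.73 ± 0.25, adjusted p = 0.000142). Cardiac-type actin (actc1a) was the exception by class, at 4277, 5443 and 6299 in AA, 2202, 2516 and 2443 in IGF1 and 2778, 3336 and 2949.6 in CTR. It lay above CTR in AA and below CTR in IGF1 with neither difference past the thresholds, yet AA and IGF1 did not overlap (log2 fold-change 1.14 ± 0.13, adjusted p = 1.09e-05). The locus of actc1a in the assembly also gave the differing name actin,alpha skeletal muscle 2-like, moved by AA alone (log2 fold-change 2.45). Calls of ldb3b, a Z-disc protein, ended without AA replicate 2 or without IGF1 replicate 1, and the call of klhl41b ended without AA replicate 2. The summed level of the list was 9156 to 12416 in AA, 6937 to 8282 in IGF1 and 8196 to 9276 in CTR, so AA lay above IGF1 and overlapped CTR.

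Of 42 tested genes of myogenic regulation and fusion, 6 differed by edgeR's quasi-likelihood test, all higher in AA. The 6 were 14.3% of the list, beside 4.76% of all genes tested. DESeq2 called 7 higher in AA and 1 higher in IGF1. The kelch proteins klhl40b and klhl41b, which stabilise thin filaments, and desmin, the intermediate filament of muscle, had been raised by AA alone. Desmin (desma) was at 298, 304 and 534 in AA, 142, 91.2 and 150.1 in IGF1 and 109, 107 and 148 in CTR (log2 fold-change 1.41 ± 0.24, adjusted p = 0.000758). The myostatin gene mstnb, an inhibitor of muscle growth in vertebrates, was also higher in AA (log2 fold-change 1.44 ± 0.33, adjusted p = 0.00819). The early myogenic factor myf5 was at 233, 243 and 330.4 in AA, 38.98, 57 and 80.5 in IGF1 and 106, 141 and 138 in CTR, so AA and IGF1 libraries lay on opposite sides of CTR (log2 fold-change 2.07 ± 0.26, adjusted p = 3.74e-05). Only the fall in IGF1 passed the thresholds against CTR (log2 fold-change -1.08), while the rise in AA lay just under the fold minimum (0.999). Myogenin, which drives terminal differentiation, passed neither threshold between the treatments, at 432, 568 and 738 in AA, 527, 416 and 462 in IGF1 and 274, 209 and 322 in CTR (log2 fold-change 0.24 ± 0.19, adjusted p = 0.53).

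Of 40 tested genes of chromosome condensation and segregation, 10 differed, all higher in AA. That share was 25%, beside 4.76% of all genes tested. The list's median log2 fold-change was 1.47, and 39 of the 40 had a positive value. Polo-like kinase (plk1), which drives entry into mitosis, was at 69.8, 51.4 and 84.4 in AA, 7.795, 2.85 and 12.4 in IGF1 and 4.82, 3.65 and 1.77 in CTR (log2 fold-change 2.80 ± 0.52, adjusted p = 0.00173). The mitotic kinase cdk1 was at 106, 98.7 and 70.3 in AA, 25.5, 17.1 and 20.98 in IGF1 and 18.5, 11.7 and 14.5 in CTR (log2 fold-change 2.10 ± 0.36, adjusted p = 0.000929), and its partner cyclin B (ccnb1) at 82.5, 68.3 and 70.3 in AA, 14.2, 5.7 and 6.99 in IGF1 and 8.03, 6.57 and 1.77 in CTR (log2 fold-change 2.96 ± 0.54, adjusted p = 0.00134). In these 3 genes every AA library exceeded every IGF1 and CTR library. Topoisomerase II (top2a), which untangles replicated DNA, rose in both treatments and further in AA, at 88.9, 66.3 and 91.4 in AA, 29.8, 11.4 and 19.4 in IGF1 and 10.4, 7.3 and 4.24 in CTR (log2 fold-change 1.87 ± 0.43, adjusted p = 0.00949). The other condensin, kinesin and spindle members that differed, ncapd2, ncapg, smc2, anln, kif20a, kif22, kifc1 and tpx2, ranged from 1.47 to 2.27.

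Of 46 tested genes of cell cycle entry and DNA replication, 6 differed by edgeR's quasi-likelihood test, all higher in AA, with a median of 0.48. The 6 were 13.0% of the list, beside 4.76% of all genes tested. DESeq2 called 12 higher in AA and 1 higher in IGF1. The replicative helicase subunit mcm7 was in the class that neither treatment moved, at 205, 187 and 105 in AA, 55.98, 57 and 68.3 in IGF1 and 111, 103 and 106 in CTR (log2 fold-change 1.5 ± 0.25, adjusted p = 0.000731), whereas mcm4, ccna2, cdk1, ccnb1 and the ribonucleotide reductase subunit rrm1, which makes deoxynucleotides, had been raised by AA alone. The summed level of 8 tested markers of satellite cells, the stem cells of muscle, was 1699.5 to 1933 in AA, 729.9 to 905 in IGF1 and 1100 to 1334 in CTR, and 3 of the 8 were higher in AA, namely myf5, the receptor fgfr4 and the chemokine receptor cxcr4b. These 3 were 37.5% of the 8, beside 4.76% of all genes tested. The defining markers pax7a and pax7b did not differ (0.62 and -0.08), and the part of such cells in the result was not tested. In bulk samples, fewer cells of a type and less RNA per cell cannot be told apart.

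**Figure D3:**
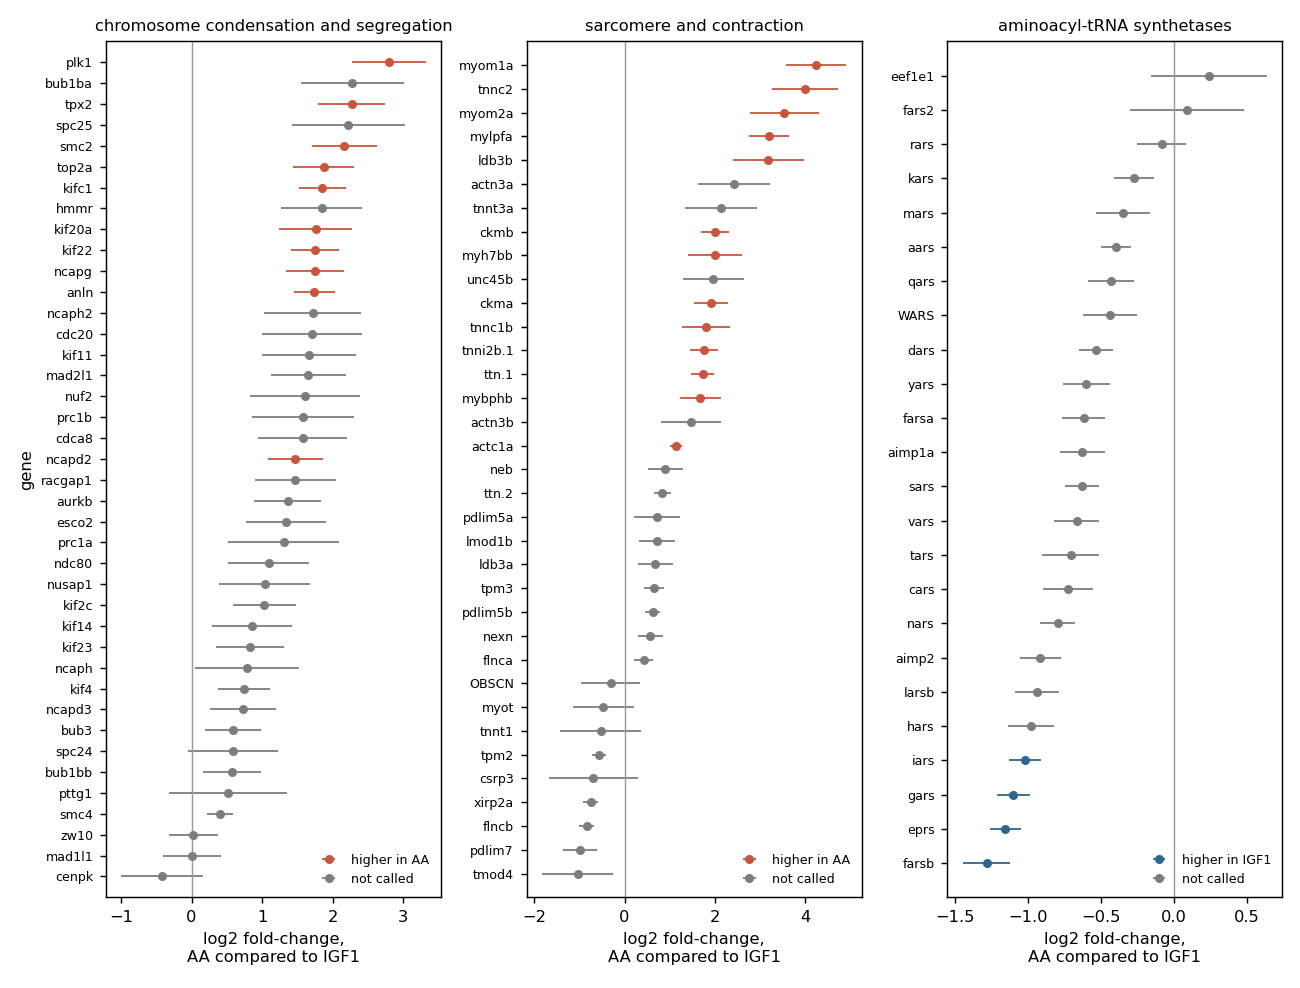
Log2 fold-change of AA compared to IGF1 (x axis, ± SE) for every tested gene (y axis) of 3 lists, in red where called higher in AA, blue where called higher in IGF1 and grey where not called. In the segregation list 39 of 40 genes lie right of 0, the sarcomere list has 13 called genes on the right, and 22 of 24 aminoacyl-tRNA synthetases lie left of 0.

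AA alone also raised genes outside these lists. Osteopontin (spp1), a secreted phosphoprotein of the matrix, was at 832, 459.9 and 513 in AA, 93.5, 68.4 and 96.9 in IGF1 and 112, 89.8 and 104 in CTR (log2 fold-change 2.73 ± 0.23, adjusted p = 7.61e-07). The tubulin tubb5 was at 688, 989 and 899.9 in AA, 189.9, 191 and 241 in IGF1 and 139, 129 and 129 in CTR (log2 fold-change 2.01 ± 0.17, adjusted p = 1.08e-06). Myosin light chain kinase (mylka), which activates non-muscle and smooth muscle myosin, was at 1441, 1236 and 1111 in AA, 374, 465 and 377 in IGF1 and 384, 354 and 347 in CTR (log2 fold-change 1.65 ± 0.15, adjusted p = 1.78e-06). In all 3 genes the AA libraries stood clear of both other groups. The IGF1 and CTR libraries overlapped in spp1 and mylka. In tubb5 IGF1 lay wholly above CTR by less than the fold minimum (log2 fold-change 0.67, adjusted p = 0.0246 by edgeR's quasi-likelihood test). The locus of tubb5 in the assembly also gave the differing name zgc:153426.

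Of 24 tested genes of sterol synthesis and uptake, 6 differed, all higher in AA, and the median was 0.79. That share was 25%, beside 4.76% of all genes tested. Lanosterol synthase (lss), which closes the sterol ring, was at 159, 109.6 and 141 in AA, 48.2, 19.9 and 18.98 in IGF1 and 42.6, 19.7 and 19.1 in CTR (log2 fold-change 2.16 ± 0.41, adjusted p = 0.00219). Farnesyl diphosphate synthase (fdps) was at 375, 203 and 260.1 in AA, 148, 82.6 and 86.1 in IGF1 and 106, 82.5 and 71.1 in CTR (log2 fold-change 1.35 ± 0.28, adjusted p = 0.00382), and squalene epoxidase (sqlea), a rate-limiting step, differed by 1.12 ± 0.26, a call that ended without IGF1 replicate 2. Replicate 1 was the highest library of IGF1 and also of CTR in all 3 genes. The summed level of the list was 2946 to 4811 in AA, 1851 to 2930 in IGF1 and 1523 to 2386 in CTR, so the IGF1 and CTR ranges overlapped. From replicate 1 to 3 the sum fell in every group, at 4811, 3347 and 2946 in AA, 2930, 1995 and 1851 in IGF1 and 2386, 1679 and 1523 in CTR. Whether libraries of the same number share a culture is not stated, and the correlation of their residuals, given below, cannot settle it.

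Fatty acid synthesis held 4 differing genes of 20, all higher in AA but by different routes. That share was 20%, beside 4.76% of all genes tested. The desaturase scd, which makes monounsaturated fatty acids, had been raised by AA alone, at 284, 260.4 and 148 in AA, 73.7, 74.1 and 51.95 in IGF1 and 68.3, 40.2 and 34.7 in CTR (log2 fold-change 1.89 ± 0.30, adjusted p = 0.000403). ATP citrate lyase (aclya), which makes cytosolic acetyl-CoA, rose in both treatments and further in AA (log2 fold-change 2.60 ± 0.60, adjusted p = 0.00862). Mitochondrial glycerol phosphate acyltransferase (gpam), the entry to glycerolipid synthesis, was lowered by IGF1 alone, at 609.5, 816 and 738 in AA, 135, 142 and 221 in IGF1 and 831, 1011 and 1028 in CTR (log2 fold-change 2.06 ± 0.19, adjusted p = 1.81e-06). The regulator mid1ip1a was moved past the thresholds by neither, and its call between AA and IGF1 ended without AA replicate 2, without IGF1 replicate 3 and with limma.

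Genes that AA alone lowered, and that were thus higher in IGF1, were led by the simple keratins. Keratin 8 (krt8) was at 10830.1, 11146 and 10932 in AA, 29848, 30149 and 26853 in IGF1 and 31146, 32303 and 32417 in CTR (log2 fold-change -1.42 ± 0.08, adjusted p = 2.54e-08), and its partner krt18a.1 at 3892, 3998 and 3684 in AA, 11102, 11308 and 10458 in IGF1 and 12734, 13657 and 12758 in CTR (log2 fold-change -1.52 ± 0.10, adjusted p = 2.54e-08). AA was low in all 3 libraries, and IGF1 lay slightly below CTR. Both are epithelial markers. The 4 tested genes of that marker list summed to 28379.5 to 30831 in AA, 60046 to 64437 in IGF1 and 70213 to 71548 in CTR, whereas the defining adhesion genes cdh1 and epcam were not among the genes tested. Their part in the result was not tested.

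The glutamine and neutral amino acid carrier slc38a5b was at 1357, 1076 and 738 in AA, 4325, 4477 and 4215 in IGF1 and 5925, 5561 and 5546 in CTR (log2 fold-change -2.02 ± 0.16, adjusted p = 2.22e-07). It had the smallest adjusted p of 33 tested amino acid transporters. Of these, 3 were higher in IGF1 and 4 higher in AA, with a median of -0.52. That share was 21.2%, beside 4.76% of all genes tested. The heavy chain slc3a2a, which carries several light-chain exchangers to the membrane, was likewise lowered by AA alone (log2 fold-change -2.0 ± 0.38, adjusted p = 0.0019). The cationic amino acid carrier slc7a3a took the other route, raised by IGF1 alone, at 144, 174 and 70.3 in AA, 315, 359 and 368 in IGF1 and 85.1, 126 and 104 in CTR (log2 fold-change -1.28 ± 0.24, adjusted p = 0.0016). The exchanger slc7a8a fell in both treatments and further in IGF1, at 104, 131 and 42.2 in AA, 32.6, 34.2 and 42.2 in IGF1 and 248, 204 and 197 in CTR, a call that ended without AA replicate 2 (log2 fold-change 1.48 ± 0.29, adjusted p = 0.00295). The summed level of the transporters was 6855 to 7850 in AA, 12796 to 14478 in IGF1 and 14376 to 14641 in CTR. Much of that sum was slc38a5b, with means of 1057 in AA, 4339 in IGF1 and 5678 in CTR. The list's median log2 fold-change against CTR was 0.17 in AA and 0.36 in IGF1, so the typical transporter did not fall in AA.

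Among genes of lipid use, cpt1b and plin2 had fallen in AA. Carnitine palmitoyltransferase (cpt1b), the gate of fatty acids into mitochondria, was at 0, 1.35 and 0 in AA, 30.5, 22.8 and 20.6 in IGF1 and 25.7, 35.8 and 25.1 in CTR, which is 2 counts over all AA libraries against 154 in IGF1, a ratio of 23.9 (95% interval 6.49 to 199, counting error only). The 0 in AA replicate 3 allows a level within the IGF1 range, so the other AA libraries carry the difference. Perilipin 2 (plin2), which coats lipid droplets, was at 817, 728 and 534 in AA, 1380.4, 1764 and 1628 in IGF1 and 2819, 3352 and 3303 in CTR, so it lay below CTR in both treatments with only AA past the fold minimum (log2 fold-change -1.18 ± 0.15, adjusted p = 4.30e-05). In the opposite direction, the mitochondrial carrier ucp2 was at 931, 1175 and 1469 in AA, 340.1, 282 and 394 in IGF1 and 556, 550.4 and 571 in CTR (log2 fold-change 1.75 ± 0.16, adjusted p = 1.99e-06). Over 41 tested genes of fatty acid oxidation and lipid storage these were the 3 that differed, and the median was -0.34. That share was 7.32%, beside 4.76% of all genes tested.

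Several of the largest values higher in IGF1 rested on few counts. The pigment gene oca2, a melanosomal transporter, was at 0, 8.79 and 0 in AA, 30.5, 96.9 and 84.1 in IGF1 and 32.1, 66.4 and 56.9 in CTR (log2 fold-change -3.58 ± 0.65, adjusted p = 0.00137), with 13 counts over AA. The trafficking GTPase rab38c, which serves melanosomes in mammals, had 9 counts over AA (log2 fold-change -3.23 ± 0.66, adjusted p = 0.00368), and shisal1a had 4 (log2 fold-change -3.91 ± 0.83, adjusted p = 0.00478). In all 3, AA replicates 1 and 3 were at 0. For the neuronal enolase eno2 the ratio of IGF1 to AA was 10.8 (95% interval 2.89 to 91.3, from 70 and 2 counts), and for the glucuronosyltransferase ugt2a4 it was 8.06 (2.66 to 39.9, from 78 and 3 counts). The calls of eno2 and ugt2a4 each ended in 7 of 9 fits that omitted 1 library, and that of mgst1.2, a microsomal glutathione transferase, in 6. The peptidase inhibitor pi15a was at 4.23, 8.12 and 0 in AA, 53.9, 28.5 and 55.4 in IGF1 and 26.5, 10.95 and 19.4 in CTR (log2 fold-change -2.95 ± 0.58, adjusted p = 0.00272).

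Genes lowered by IGF1 alone, and so higher in AA, were led by selenoprotein P (selenop), the plasma carrier of selenium. It was at 3429, 3129 and 2854 in AA, 928, 629.8 and 791 in IGF1 and 3443, 2586 and 2848 in CTR (log2 fold-change 1.97 ± 0.15, adjusted p = 2.22e-07). AA did not differ from CTR at the thresholds. A contig named znf143b gave nearly the same values in every library (log2 fold-change 1.92 ± 0.15, adjusted p = 2.22e-07) and belonged to the same assembly locus, so the 2 names cannot be counted as separate genes with confidence. The transporter abcc6a, which releases ATP from cells, was at 155, 72.4 and 84.4 in AA, 11.3, 5.7 and 10.4 in IGF1 and 70.7, 43.1 and 50.9 in CTR (log2 fold-change 3.34 ± 0.41, adjusted p = 2.55e-05).

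In the IGF axis itself, 3 of 50 tested genes differed, or 6%, near the 4.76% of all genes tested. All 3 had been moved by IGF1 alone. The PI3K inhibitor pik3ip1 was at 550.3, 548 and 844 in AA, 182, 179.5 and 144 in IGF1 and 587, 461 and 458 in CTR (log2 fold-change 1.90 ± 0.19, adjusted p = 3.07e-06), and its locus in the assembly also gave the name larp1. The binding proteins igfbp5b and igfbp6a, which hold IGFs outside the cell, went opposite ways. Igfbp5b was at 74.1, 72.4 and 77.3 in AA, 251, 279 and 264 in IGF1 and 66.7, 75.9 and 104 in CTR (log2 fold-change -1.84 ± 0.23, adjusted p = 3.25e-05), and igfbp6a was at 12.7, 36.5 and 28.1 in AA, 1.42, 0 and 4.396 in IGF1 and 18.5, 29.2 and 24.8 in CTR (log2 fold-change 3.11 ± 0.64, adjusted p = 0.0041), a call that ended without AA replicate 2. The median of the list was 0.07, and the receptors igf1ra and igf1rb did not differ (1.39 and 0.74, with fewer than 15 normalized counts in every library).

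Of 42 tested atrophy genes, which include targets of FoxO, 2 were higher in AA and 3 higher in IGF1, with a median of 0.12. That share was 11.9%, beside 4.76% of all genes tested. Against CTR, 12 of the 42 had fallen in AA and 11 in IGF1. Over all genes tested, AA moved 6.96% and IGF1 2.93% from CTR in either direction. The ubiquitin ligase fbxo32 (atrogin-1), a marker of muscle wasting, was at 95.2, 67.6 and 42.2 in AA, 99.2, 74.1 and 83.1 in IGF1 and 243, 239 and 226 in CTR (log2 fold-change -0.26 ± 0.25, adjusted p = 0.62). AA and IGF1 libraries overlapped and both lay wholly below CTR. The related fbxo25 was at 150.3, 173 and 84.4 in AA, 144, 157 and 131 in IGF1 and 206, 268 and 236 in CTR (log2 fold-change 0.05 ± 0.23, adjusted p = 0.94). The lysosomal regulator tfeb, the stress gene gadd45aa and the glucose-responsive arrestin txnipb were the 3 higher in IGF1, lowered by AA alone, at -1.42, -1.14 and -1.23. Without AA replicate 2 the call of gadd45aa ended, and without AA replicate 1 or IGF1 replicate 2 that of txnipb. Of 50 lysosome and autophagy genes, 0 differed by edgeR's quasi-likelihood test, 0 by DESeq2, and 15 had an unadjusted p under 0.05. Without the fold minimum, 1 of the 50 was higher in AA and 6 were higher in IGF1. Over all 13162 genes tested, 2959 had an unadjusted p under 0.05 and 1190 passed the adjusted p.

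IGF1 alone raised enzymes of amino acid metabolism. Betaine-homocysteine methyltransferase (bhmt), which remakes methionine, was at 792, 1062 and 717 in AA, 2733, 2379.7 and 2184 in IGF1 and 1209.7, 1119 and 1121 in CTR (log2 fold-change -1.49 ± 0.15, adjusted p = 4.00e-06). The glutathione-degrading enzyme chac1, an ATF4 target in mammals, was at 669, 739.9 and 415 in AA, 1724, 2046 and 1817 in IGF1 and 869, 866 and 854 in CTR (log2 fold-change -1.57 ± 0.17, adjusted p = 5.69e-06). Argininosuccinate synthase (ASS1), which makes the precursor of arginine, was at 188, 137 and 155 in AA, 356, 430.3 and 378 in IGF1 and 177, 176 and 173 in CTR (log2 fold-change -1.30 ± 0.18, adjusted p = 0.000119). In each, IGF1 stood above both other groups without overlap. Of 63 tested genes of amino acid synthesis and breakdown, 8 were higher in IGF1 and 1 higher in AA, with a median of -0.24, and 6 of the 9 had been moved by IGF1 alone. They included the methionine adenosyltransferases mat1a and mat2ab, arginase arg2 and phgdh, which opens serine synthesis. Phgdh lay at the fold minimum (-1.0 ± 0.15), and its call ended in 5 of 9 fits that omitted 1 library. Cystathionine beta-synthase (cbsa) was instead lowered by AA alone (log2 fold-change -1.13 ± 0.14, adjusted p = 2.41e-05). The 9 differing genes were 14.3% of the list, beside 4.76% of all genes tested. Without normalization beyond the library size the split of the list was 3 to 2.

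Of 24 tested aminoacyl-tRNA synthetases, which load tRNAs with amino acids, 17 passed the adjusted p, all higher in IGF1. Among all 13162 genes tested, 1190 passed it in either direction. Of the 17 synthetases, 4 also passed the fold minimum, or 16.7% of the list beside 4.76% of all genes tested. The median of the list was -0.63. The bifunctional glutamyl-prolyl synthetase eprs was at 1905, 1989 and 2249.8 in AA, 4189, 4794 and 4484 in IGF1 and 2921, 2889 and 2854 in CTR (log2 fold-change -1.16 ± 0.11, adjusted p = 1.81e-06). Glycyl-tRNA synthetase (gars) was at 1615, 1715 and 1498 in AA, 3512, 3399.9 and 3366 in IGF1 and 1991, 1904 and 1911 in CTR (log2 fold-change -1.10 ± 0.11, adjusted p = 4.21e-06), and isoleucyl-tRNA synthetase (iars) differed by -1.02 ± 0.11, a call that ended without AA replicate 1. All 4 were in the class moved by neither treatment, since AA lay below and IGF1 above CTR by less than the fold minimum, as eprs shows at -0.52 and 0.63. Against CTR, 4 other members of the list were raised by IGF1 past the thresholds and 0 were moved by AA. IGF1 moved 2.93% and AA 6.96% of all genes tested in either direction. The list's median against CTR was 0.62 in IGF1 and -0.11 in AA. The summed level of the list was 17084 to 17633 in AA, 28740.5 to 29770.2 in IGF1 and 19749 to 20194 in CTR, with no overlap of any 2 groups. Without normalization beyond the library size the median was -0.44 and 1 gene was called.

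Of 36 tested genes of the wider ATF4 response, chac1 and phgdh were higher in IGF1, beside 4.76% of all genes that differed in either direction, with a median of -0.41. DESeq2 called 2 genes higher in IGF1 and 1 higher in AA. The factor atf4a itself was at 2356, 2355 and 2292 in AA, 3024, 3195 and 3307 in IGF1 and 3705, 4290.3 and 4031 in CTR (log2 fold-change -0.46 ± 0.11, adjusted p = 0.00993), below the fold minimum. Here CTR was the highest group and AA the lowest. The pseudokinase trib3, a target of ATF4, had the same order (log2 fold-change -0.47 ± 0.14, adjusted p = 0.0342).

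Of 36 tested genes of glycolysis and glucose use, 5 were higher in IGF1 and 0 higher in AA, with a median of -0.62. That share was 13.9%, beside 4.76% of all genes tested. The 5 included the enolase eno2 (-3.56), with 2 counts over AA. Its call ended with DESeq2 and in most fits that omitted 1 library. UDP-glucose pyrophosphorylase (ugp2b), on the way to glycogen, was at 279, 313 and 267 in AA, 608, 744 and 679 in IGF1 and 593, 864 and 765 in CTR (log2 fold-change -1.22 ± 0.17, adjusted p = 7.54e-05), and ugp2a was a contig of the same assembly locus, whose call ended in 5 of 9 fits that omitted 1 library. The regulator pfkfb4b fell in AA past the thresholds, at 197, 126 and 56.2 in AA, 297, 256 and 269 in IGF1 and 541, 477 and 512 in CTR (log2 fold-change -1.01 ± 0.24, adjusted p = 0.0103), and its call ended without AA replicate 2, AA replicate 3 or IGF1 replicate 1. The abundant enolase eno1a passed the adjusted p with a smaller fold, at 3733, 4953 and 4218 in AA, 7320.3, 7601 and 7194 in IGF1 and 5155, 5179 and 5256 in CTR (log2 fold-change -0.79 ± 0.11, adjusted p = 0.000119). Without AA replicate 3 the list's count was 2.

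**Figure D4:**
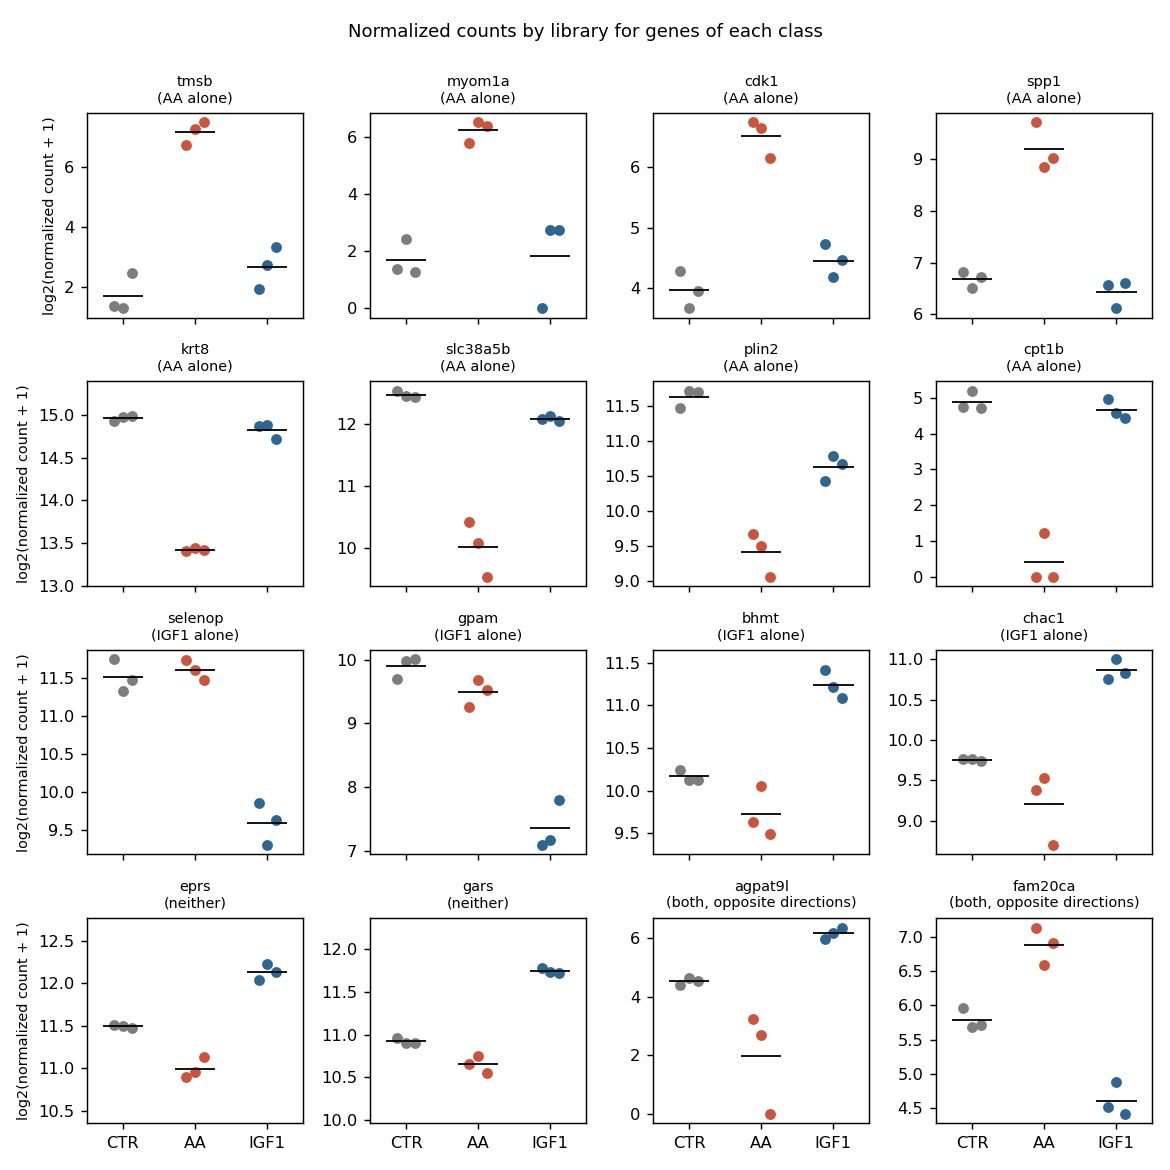
Log2 of the normalized count plus 1 (y axis) in each library of CTR, AA and IGF1 (x axis) for 16 genes, 1 panel a gene with its class, where points are libraries and black lines the means of 3. AA stands apart in the first 8 panels, except that in plin2 AA is lowest and IGF1 lies between AA and CTR. IGF1 stands apart in the next 4, and in gpam, bhmt and chac1 of these AA also lies wholly below CTR by a smaller step. In bhmt, chac1, eprs and gars AA is lowest and IGF1 highest. Agpat9l and fam20ca have AA and IGF1 on opposite sides of CTR.

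Matrix genes went both ways. Of 76 tested genes of collagen and matrix assembly, 7 were higher in IGF1 and 5 higher in AA, with a median of -0.15. That share was 15.8%, beside 4.76% of all genes tested. Without normalization beyond the library size the split turned to 4 and 7 with a median of 0.03. Those higher in IGF1 and raised by IGF1 alone included the collagen chaperone serpinh1b, at 1299.5, 1562 and 1610 in AA, 2960, 3446 and 3164 in IGF1 and 1449.8, 1683 and 1354 in CTR (log2 fold-change -1.12 ± 0.13, adjusted p = 1.11e-05), and the prolyl hydroxylase p4ha1b, which stabilises the collagen helix (log2 fold-change -1.10 ± 0.18, adjusted p = 0.000553). The proteoglycan asporin (aspn) differed by -1.72 ± 0.21, and the elastic-fibre protein emilin2b by -2.07 ± 0.43. Fibromodulin (fmoda), a collagen-binding proteoglycan, was raised by AA alone instead, at 1712, 1255 and 1294 in AA, 458, 530.1 and 415 in IGF1 and 474, 363 and 349 in CTR (log2 fold-change 1.60 ± 0.17, adjusted p = 4.21e-06). The locus of fmoda in the assembly also gave the differing name lumican-like. The 2 periostins, secreted matrix proteins, split. Postna was at 1244, 1721 and 1413 in AA, 4011, 3397 and 3005 in IGF1 and 1729, 2087 and 1843 in CTR (log2 fold-change -1.26 ± 0.15, adjusted p = 1.43e-05), and postnb rose in both treatments and further in AA (log2 fold-change 1.12 ± 0.29, adjusted p = 0.0204), a call that ended with DESeq2, with limma and without AA replicate 2, IGF1 replicate 2 or IGF1 replicate 3. Thrombospondin thbs2b, a matrix glycoprotein, was at 4961, 6675 and 5062 in AA, 12369, 14606 and 13196 in IGF1 and 6480.5, 8083 and 7721 in CTR (log2 fold-change -1.28 ± 0.13, adjusted p = 3.52e-06).

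The 13 tested markers of fibroblasts, some of which are collagens also counted above, summed to 238125 to 246050 in IGF1, 157520 to 169779 in AA and 157474 to 169301 in CTR, with 2 higher in IGF1 and 1 higher in AA. The major collagen chain col1a1a was at 43386, 43946 and 44510.1 in AA, 64381, 67423 and 66192 in IGF1 and 45388, 42255 and 45496 in CTR, which passed the adjusted p without the fold minimum (log2 fold-change -0.61 ± 0.07, adjusted p = 2.25e-05). Those past both thresholds were 23.1% of the 13, beside 4.76% of all genes tested. Without the fold minimum, 7 of the 13 were higher in IGF1 and 2 higher in AA, against 1190 of all 13162 genes. The markers pdgfra, pdgfrb, dcn, lum, prrx1a, twist1a and twist1b were tested and did not differ at the thresholds. The markers thy1, tcf21 and pi16 were not among the genes tested, and the part of fibroblasts in the result was not tested.

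Matrix proteases differed in 7 of 39 tested genes, 4 higher in AA and 3 higher in IGF1, or 17.9% beside 4.76% of all genes tested. The membrane protease mmp14b, which cuts collagen and activates other proteases, was at 1985, 2070.1 and 2095 in AA, 764, 889 and 792 in IGF1 and 1622, 1516 and 1789 in CTR, so IGF1 was the low group and AA lay slightly above CTR (log2 fold-change 1.32 ± 0.12, adjusted p = 1.81e-06). The protease adamts12 was raised by IGF1 alone, at 59.3, 71.01 and 162 in AA, 407, 362 and 377 in IGF1 and 146, 128 and 131 in CTR (log2 fold-change -2.24 ± 0.25, adjusted p = 9.02e-06), and AA replicate 3 was the only AA library above CTR. Fibroblast activation protein (fap) was lowered by AA alone, at 406, 368 and 379.6 in AA, 1073, 1046 and 929.6 in IGF1 and 1128, 975 and 979 in CTR (log2 fold-change -1.41 ± 0.14, adjusted p = 2.76e-06).

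Of 56 tested genes of TGF-beta, BMP and myostatin signalling, 6 were higher in AA and 2 higher in IGF1, with a median of 0.21. That share was 14.3%, beside 4.76% of all genes tested. The matricellular factor ccn2b was at 2688, 2579 and 1799.8 in AA, 465, 1282 and 897 in IGF1 and 1934, 2139 and 2042 in CTR (log2 fold-change 1.44 ± 0.24, adjusted p = 0.000608), and the activin receptor acvr1ba differed by 1.40 ± 0.22. Both had been lowered by IGF1 alone. The type 2 receptor bmpr2a differed by 1.05 ± 0.23, a call that ended without AA replicate 3. Of 45 cytokine, chemokine and JAK-STAT genes, 2 differed, both higher in AA, or 4.44% beside 4.76% of all genes tested. They were cxcr4b at 46.6, 68.98 and 70.3 in AA, 8.504, 5.7 and 17.4 in IGF1 and 65.1, 54.8 and 56.9 in CTR (log2 fold-change 2.26 ± 0.40, adjusted p = 0.00109) and the macrophage growth factor il34 (log2 fold-change 1.83 ± 0.51, adjusted p = 0.0303), whose call ended in 4 of 9 fits that omitted 1 library. Of 28 circadian clock genes, the repressors bhlhe40 and bhlhe41 were higher in IGF1, at -1.11 and -1.71, or 7.14% beside the same 4.76%. The call of bhlhe40 ended without AA replicate 1 or IGF1 replicate 3.

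By edgeR's quasi-likelihood test 0 of 74 ribosomal proteins differed, with 0 by DESeq2 and 11 at an unadjusted p under 0.05, and the median was -0.15, or 0.04 without normalization beyond the library size. Of 53 ribosome biogenesis genes 0 differed, with 0 by DESeq2, 10 at an unadjusted p under 0.05 and a median of 0.04. Without the fold minimum, 3 of the 53 were higher in IGF1 and 0 higher in AA. Of 45 chaperone and folding genes only xbp1, a factor of the unfolded protein response, differed, or 2.22% beside 4.76% of all genes tested. It was higher in IGF1, at 2011, 1504 and 1807 in AA, 3559.5, 4579.8 and 4087 in IGF1 and 3154, 2989 and 2646 in CTR (log2 fold-change -1.22 ± 0.13, adjusted p = 6.00e-06). Without the fold minimum, 5 of the 45 chaperone and folding genes were higher in IGF1 and 0 higher in AA. Of 8 genes of excitation and calcium release, 0 differed by either tool and 2 had an unadjusted p under 0.05. Over all 13162 genes tested, 2959 had an unadjusted p under 0.05 by edgeR's quasi-likelihood test, and 1190 passed the adjusted p.

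**Figure D5:**
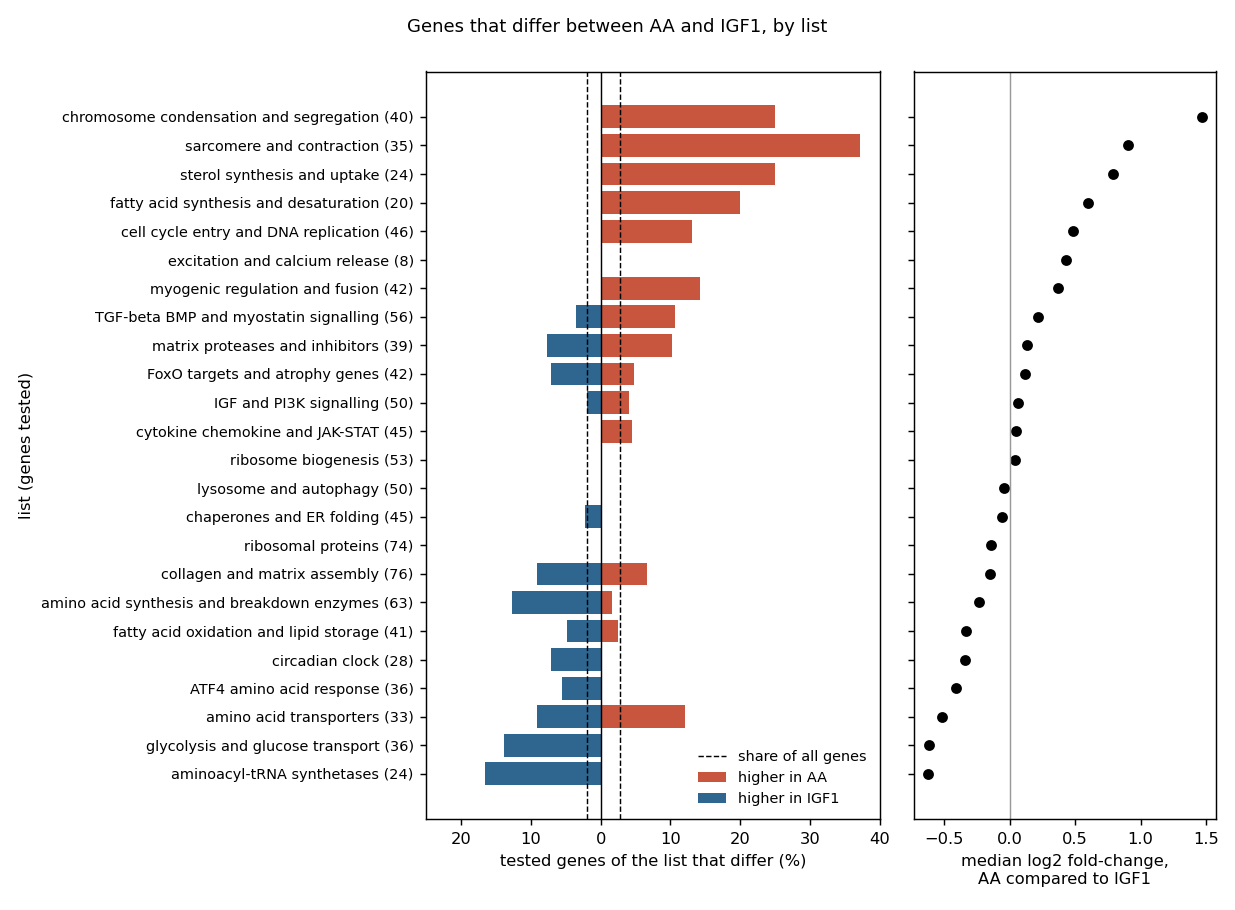
Share of the tested genes of each list that differ between AA and IGF1 (left, x axis, %), with red bars for genes higher in AA and blue bars for genes higher in IGF1, and the median log2 fold-change of each list (right, x axis), for the lists of processes and pathways, without those of cell type markers, ordered by that median (y axis). Dashed lines mark the shares over all genes, 2.74% and 2.02%, and the medians run from 1.47 for chromosome segregation to -0.63 for aminoacyl-tRNA synthetases.

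A share of 237 differing genes had been moved past the thresholds by neither treatment. Of these, 84 passed the adjusted p against CTR in AA or IGF1 with a smaller fold, and 153 passed it in neither. Their median size, 1.28, was below the 1.54 of the genes moved by AA alone. Angptl2b, a secreted angiopoietin-like protein, was at 1272, 1140.2 and 1188 in AA, 360, 524 and 504 in IGF1 and 866, 886 and 838 in CTR (log2 fold-change 1.37 ± 0.15, adjusted p = 6.62e-06). The fibroblast growth factor receptor fgfr4 was at 828, 721 and 935 in AA, 277, 239 and 295 in IGF1 and 379.9, 447 and 519 in CTR (log2 fold-change 1.56 ± 0.16, adjusted p = 4.09e-06). In both, as in actc1a, every AA library lay above CTR and every IGF1 library below it.

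Among the 15 genes moved the same way by both, 9 rose and were higher in AA, 3 fell and were higher in AA, and 3 fell and were higher in IGF1. The chromatin protein hp1bp3 was at 205, 197 and 189.8 in AA, 85.04, 88.3 and 68.1 in IGF1 and 31.3, 31.4 and 29 in CTR (log2 fold-change 1.31 ± 0.24, adjusted p = 0.00122). The arrestin ARRDC4, which limits glucose uptake in mammals, was at 144, 148 and 211 in AA, 402, 382 and 351 in IGF1 and 901, 761 and 875 in CTR, so it fell in both treatments and further in AA (log2 fold-change -1.27 ± 0.17, adjusted p = 5.74e-05).

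The 4 genes moved in opposite directions by the treatments were agpat9l, a glycerol phosphate acyltransferase, fam20ca, a secreted protein kinase, and the names glutaminesynthetase and starchbinding domain 1. Agpat9l was at 8.47, 5.41 and 0 in AA, 62.4, 71.2 and 81.3 in IGF1 and 20.1, 24.1 and 21.9 in CTR (log2 fold-change -3.63 ± 0.49, adjusted p = 7.05e-05), with 12 counts over AA. The 0 in AA replicate 3 allows up to 21.1, which is within the CTR range. Fam20ca was at 139.7, 95.4 and 119.5 in AA, 21.97, 28.5 and 20.4 in IGF1 and 61.05, 50.4 and 51.3 in CTR (log2 fold-change 2.36 ± 0.32, adjusted p = 6.58e-05). The contig named glutaminesynthetase, for the enzyme that makes glutamine from glutamate and ammonia, was at 601, 431 and 450 in AA, 80.8, 48.4 and 129.9 in IGF1 and 179.9, 220.5 and 222 in CTR (log2 fold-change 2.36 ± 0.25, adjusted p = 5.52e-06). The paralogue glulb of the amino acid enzymes leaned the same way without the fold minimum (log2 fold-change 0.99 ± 0.19, adjusted p = 0.0022). In all 4, starchbinding domain 1 included, the measured libraries of the 3 groups did not overlap.

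The gene marcksb, a substrate of protein kinase C at the membrane, was at 248, 179 and 49.2 in AA, 59.5, 39.9 and 45.4 in IGF1 and 37.8, 21.9 and 38.9 in CTR, with AA replicate 3 inside the IGF1 range (log2 fold-change 1.79 ± 0.38, adjusted p = 0.00476). Its call ended with limma. Its locus in the assembly also gave the differing name fyna. The proto-oncogene mycn was at 38.1, 41.3 and 105 in AA, 46.8, 28.5 and 40.8 in IGF1 and 8.03, 21.9 and 17.7 in CTR and passed neither threshold (log2 fold-change 0.39 ± 0.45, adjusted p = 0.70).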

How the data were processed

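Poly(A) RNA of 9 libraries was analysed, 3 each of CTR, AA and IGF1, grouped by the sample titles. The authors trimmed reads (Trimmomatic, FastQC 0.11.8), assembled them with Trinity, annotated contigs by BLASTx against 3 fish proteomes and mapped reads with Bowtie2. The counting tool is not given in the sources used here, and GRCz11 is listed without a role. The deposited counts are whole numbers per contig. The deposited signal values are these counts divided by the authors' DESeq2 size factors, called normalized counts here.

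Raw counts of 35575 contigs were fitted with edgeR 4.0.16 (R 4.3.3; TMM, quasi-likelihood F test, group as the only term, all 9 libraries), with Benjamini-Hochberg adjustment over all contigs. The SE of a log2 fold-change was obtained by dividing its size by the root of F. Intervals of count ratios are 95% exact binomial, counting error only. In simulated data for AA compared to IGF1 on 13162 genes, 63% of 3-fold and 80% of 5-fold changes were recovered, and 2.72% of calls were false. The simulation changed 100 genes at each fold and drew counts from the kind of model that was fitted. Each contig had the same spread in every group, whereas the measured spread was larger within AA. These rates therefore cannot be read as those of the 626 genes.

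Lists and members were chosen with earlier results of these data known. Genes named are the 10 largest changes a direction with an informative symbol and no overlap of AA and IGF1, the 3 smallest adjusted p of each class and direction and of each list, genes moved in opposite directions, and marcksb, mycn, mmp14b, fbxo25, fbxo32 and myog, which the study names among others. Other genes are named as further list members or after their values were seen. A matrix protease list member is not reported here. Symbols were matched to the authors' names, and roles are known mostly from mammals and zebrafish. Alternatives were DESeq2 1.42.0, edgeR's newer method, other normalizations, filters and contig choices, limma 3.58.1 on log2(normalized count + 1), the AA and IGF1 libraries alone, thinning to the shallowest library (median of 5 draws), the replicate block, no fold minimum, and each library left out. For the list counts, alternatives were added after seeing the data.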

Additional observations from a re-analysis of the deposited data

Results flagged for a closer look

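In 4 genes AA and IGF1 moved transcription past the thresholds in opposite directions from CTR. They were sorted from genes already called in the AA to IGF1 contrast of edgeR's quasi-likelihood fit. That contrast therefore gives the size of the difference and no separate support for the opposite directions. The log2 fold-change of AA compared to IGF1 was -3.63 in agpat9l, 2.36 in fam20ca, 2.36 in the contig named glutaminesynthetase and -2.86 in that named starchbinding domain 1. Against CTR, starchbinding domain 1 was at -1.70 in AA and 1.16 in IGF1, with libraries at 91.01, 147 and 77.3 in AA, 864, 855 and 820.1 in IGF1 and 319, 443 and 372 in CTR. Agpat9l was at -1.93 in AA and 1.71 in IGF1, fam20ca at 1.09 and -1.27, and glutaminesynthetase at 1.24 and -1.13. The calls of agpat9l, fam20ca and glutaminesynthetase between AA and IGF1 held under all 19 alternatives run. These alternatives did not include thinning to the shallowest library. They were read for that contrast and not for the calls of each gene against CTR.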

How the results depend on the processing

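The count of 626 genes was 749 with DESeq2, 802 with edgeR's newer method, 629 with median-of-ratios normalization, 753 with no filter, 632 with filterByExpr, 505 from the AA and IGF1 libraries alone, 566 with counts summed per name, 790 with any contig of the name, 504 with limma and 453 after thinning. With no fold minimum it was 1190, with 564 higher in AA and 626 higher in IGF1, and 564 moved by AA alone, 224 by IGF1 alone and 85 by both. With no normalization beyond the library size, 584 were higher in AA and 160 higher in IGF1. The 19 genes moved by both became 35 with the newer method, 10 with limma and 9 after thinning. The thinning draws kept 52.9% to 55.9% of the 626 calls. With each library left out, the total was 466 to 672 and the number moved by both 10 to 26, and 294 of the 626 genes were called in all 9 such fits. Replicate numbers were not treated as pairs, since residuals of the same number correlated between -0.047 and 0.113, with 2 of 9 over 0.1. Such a cutoff cannot show that libraries of the same number came from separate cultures. With the replicate block 686 genes were called.

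None of the 91 named genes that differ changed direction under the alternatives run, whereas fbxo25 and mycn, which passed neither threshold, took both signs. Of the 91, 27 lost the call under at least 1 alternative and 21 in at least 1 fit with a library left out. Thinning, any contig of the name and no fold minimum were not read for single named genes, so calls at equal depth were not checked. DESeq2 ended the calls of eno2, mgst1.2, phgdh, postnb and ugt2a4, and limma those of cdh5, iars, il34, ldb3b, marcksb, mid1ip1a, phgdh, postnb, slc7a8a, ugp2a and ugt2a4. Without normalization beyond the library size the calls of bhlhe40, cbsa, cebpa, eprs, gadd45aa, gars, iars, pfkfb4b, phgdh, plin2, serpinh1b, ugp2a and ugt2a4 ended, and from the AA and IGF1 libraries alone those of cebpa, eno2, il34, mgst1.2, phgdh, txnipb, ugp2a and ugt2a4. The list counts were rerun under settings chosen after seeing the data. The cell cycle count of 6 was 12, and 1 higher in IGF1, with DESeq2 and 12 without normalization, the sterol count of 6 was 10 without AA replicate 3 and 11 without normalization, and the glycolysis count of 5 was 2 without AA replicate 3 and 2 without normalization. The aminoacyl-tRNA synthetase count of 4 was 1 without normalization. Without AA replicate 3 the segregation count was 12 and the sarcomere count 11. The low depth of AA replicate 3 limits genes with few counts, and 38 genes higher in IGF1 were at 0 in it.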

Other observations

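A group of genes outside the lists and the naming rule, chosen after their values were seen, carried transcripts that in vertebrates are induced by and feed back on growth factor signalling through ERK. Sprouty spry1, an inhibitor of receptor tyrosine kinase signalling, was at 370.4, 359.8 and 344 in AA, 94.2, 74.1 and 77.3 in IGF1 and 151, 118 and 108 in CTR (log2 fold-change 2.10 ± 0.21, adjusted p = 2.86e-06). Its relative spry4 differed by 1.23 ± 0.19, and the ERK phosphatase dusp6, at 129, 129 and 155 in AA, 42.5, 51.3 and 35.97 in IGF1 and 53.8, 67.2 and 76.03 in CTR, by 1.69 ± 0.28. These 3 had been raised by AA alone. The early growth response factor egr1 rose in both treatments and further in AA, at 150.3, 165 and 218 in AA, 67.3, 42.7 and 96.5 in IGF1 and 36.9, 28.5 and 41.7 in CTR (log2 fold-change 1.21 ± 0.29, adjusted p = 0.012). The ETS factors etv4 and etv5b were also higher in AA, by 1.13 ± 0.21 and 1.19 ± 0.23, but had been lowered by IGF1 alone. No list of such genes was drawn up, and no test of them as a group was made.

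The kinase sgk1, which shares targets with AKT, appeared under the names SGK1 and sgk1, contigs of the same assembly locus. SGK1 was at 102, 156 and 141 in AA, 338, 519 and 353 in IGF1 and 222, 268 and 282 in CTR (log2 fold-change -1.56 ± 0.22, adjusted p = 9.50e-05), and sgk1 differed by -1.53 ± 0.28. Both were higher in IGF1 and in the class moved by neither treatment.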
